A study of Mus musculus with 6 samples.

Results

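RNA-Seq libraries of sorted coronary endothelial cells (ECs) were examined for 10 transcripts that belong to cardiomyocytes, the muscle cells of the heart: *Myh6*, *Myh7*, *Tnnt2*, *Tnni3*, *Actc1*, *Actn2*, *Ttn*, *Nppa*, *Myl7* and *Mb*. The genes were chosen by symbol as widely used cardiomyocyte markers, and they are 10 of the 55416 genes in the table and 10 of the 16296 genes tested. All 10 had at least 10 counts in at least 2 libraries, the minimum for testing. The measured question was how much RNA of these genes each library held, and whether the amount differed between genotypes. Which cells made this RNA was not tested.

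The 6 libraries came from mouse hearts at E15.5, with 3 libraries of *ControlΔEC* embryos, Pdgfb(CreERT2/+); Wt1(+/+); R26(mTmG/+), and 3 of *Wt1KOΔEC* embryos, Pdgfb(CreERT2/+); Wt1(loxP/loxP); R26(mTmG/+). Both genotypes carried the same Cre driver and the same mTmG reporter, which turns on membrane GFP in cells where Cre has acted, and both were exposed to tamoxifen at 75 mg/kg between E11.5 and E13.5. Ventricles were digested with collagenase and mGFP+ cells were collected by FACS, so the atria were not part of the dissected tissue. Cre was driven by *Pdgfb*, a gene known for its activity in ECs, and recombination in cells other than ECs was not measured in these data. By staining at E15.5 with this driver, reporter and tamoxifen schedule, the study placed mGFP in vessels of the compact myocardium. It saw none in the epicardium or in the endocardium of the ventricles. For these libraries it reported relatively low counts of cardiomyocyte genes, among them *Myh7*, *Tnnt2*, *Actn2* and *Mb*. The number of embryos behind a library is not given in the labels, so p-values measure the spread between these libraries. Both genotypes were obtained within shared litters, but the replicate numbers are not said to mark a litter.

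The cardiomyocyte contracts through the sarcomere, in which thick filaments of myosin pull on thin filaments of actin under the control of the troponin complex. Thin filaments are anchored at the Z-disc by α-actinin, and titin spans from the Z-disc to the middle of the sarcomere. The embryonic ventricle of the mouse is known to use mainly β-myosin heavy chain, and coronary ECs lie among cardiomyocytes, from which they are separated by digestion and sorting. In bulk samples, fewer cells of a type and less RNA per cell cannot be told apart, and neither can RNA from whole cardiomyocytes, from fragments of them or from the surrounding fluid.

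Sequences are given first where they bear on what a count of a member means or on the member that stood apart below. *Myh6* (chr14:55179367-55205887) and *Myh7* (chr14:55208141-55232084) lie next to each other on the minus strand of mouse chromosome 14 (GENCODE vM39, GRCm39), and their coding sequences are alike. Of the 51-base windows of the longest protein-coding transcript, 21.3% in *Myh7* and 20.1% in *Myh6* occurred in the other gene without a mismatch. Their longest shared run held 245 bases, from exons 29 and 30 of 38 in *Myh6* (chr14:55186069-55186182 and chr14:55185784-55185914) and exons 31 and 32 of 40 in *Myh7* (chr14:55212691-55212804 and chr14:55212404-55212534). It is written in the direction of transcription, and a 51-base read from inside it cannot be placed in either gene by its own sequence. The study sequenced fragments from both ends, so a mate outside the shared sequence can place such a read. The window shares given here do not take mates into account.
Myh6 and Myh7 shared run: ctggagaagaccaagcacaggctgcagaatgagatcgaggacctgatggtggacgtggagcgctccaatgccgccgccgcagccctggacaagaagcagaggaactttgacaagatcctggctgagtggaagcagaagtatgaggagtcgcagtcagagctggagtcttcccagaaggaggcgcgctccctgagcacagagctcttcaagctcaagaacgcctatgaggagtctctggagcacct

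Sharing was small or absent in most other members. *Tnni3* shared 15.8% of its windows with *Dnaaf3*, a gene that overlaps it on the same strand, which had 0 to 34 counts per library. *Actn2* shared 1.18% and *Actc1* 0.329% of windows with other genes, and *Tnnt2*, *Ttn*, *Nppa*, *Myl7* and *Mb* shared 0%. The antisense genes *Mhrt* at the myosin genes, *Gm13054* at *Nppa* and *Apol6* at *Mb* had at most 5, 6 and 8 counts. The libraries do not mark strand, so reads of a member and its antisense partner cannot be told apart.

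The windows of 300 bases around the RefSeq start (GRCm38.p6) are shown for *Nppa*, the member with the largest difference between genotypes, and for *Actc1*, the most abundant member. The *Nppa* window is chr4:148000472-148000771 on the plus strand, and capitals mark GATAA, read on either strand, and TATAAA. The *Actc1* window is chr2:114052826-114053125 on the minus strand, and capitals mark a CArG box, the binding sequence of serum response factor, and TATAAA.
Nppa promoter: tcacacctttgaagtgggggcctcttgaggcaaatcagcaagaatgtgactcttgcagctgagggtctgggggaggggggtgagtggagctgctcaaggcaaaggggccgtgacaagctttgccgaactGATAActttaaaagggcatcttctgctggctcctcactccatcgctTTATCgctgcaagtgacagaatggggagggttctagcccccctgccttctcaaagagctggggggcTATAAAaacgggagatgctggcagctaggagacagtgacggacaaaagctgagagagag
Actc1 promoter: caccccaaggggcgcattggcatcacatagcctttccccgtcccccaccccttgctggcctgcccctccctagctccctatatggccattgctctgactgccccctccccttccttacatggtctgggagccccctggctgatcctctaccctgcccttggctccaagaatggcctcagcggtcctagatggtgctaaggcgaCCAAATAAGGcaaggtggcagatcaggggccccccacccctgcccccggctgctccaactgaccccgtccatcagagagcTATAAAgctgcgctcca

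All 10 members had such a window. GATAA, the core recognised by GATA factors, was found in 4 members (*Nppa*, *Myl7*, *Tnni3* and *Tnnt2*) and in 28.4% of the 27025 genes with a window. CArG boxes were found in 2 members (*Actc1* and *Myl7*) and in 1.81% of genes. The MCAT motif CATTCC was found in 5 members (*Myh6*, *Myh7*, *Myl7*, *Tnnt2* and *Ttn*) and in 16.6% of genes, and the MEF2 site in *Ttn* and in 3.70% of genes. TATAAA was found in 3 members (*Actc1*, *Myh6* and *Nppa*) and in 15.7% of genes. *Actn2* and *Mb* had none of the 5 motifs. A match describes these letters and is not a measured binding site.

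Libraries held 26037324 to 44779020 counts, and 3 counts, the floor used here for counting error only, stood for 0.0608 to 0.119 CPM, the abundance unit used throughout, in which TMM factors correct the library totals. *Wt1*, the targeted gene, was at 109.6 to 148.7 CPM in *ControlΔEC* and 13.999 to 21.3 CPM in *Wt1KOΔEC* libraries (log2 fold change -2.91, SE 0.22, adjusted p = 0.00319, edgeR), as the genotype labels state. The 10 endothelial markers summed to 5977 to 7455 CPM in *ControlΔEC* and 6092 to 6983 CPM in *Wt1KOΔEC* libraries, and all 10 were detected, so the labelled cell type carried its markers. The ribosomal RNA gene *Rn18s* took 13.2 to 15.3% of counts in *ControlΔEC* and 21.1 to 26.5% in *Wt1KOΔEC* libraries, and the mitochondrially encoded genes took 5.21 to 6.61% and 1.68 to 4.57%, both without overlap. With *Rn18s* and the mitochondrially encoded genes removed before fitting, edgeR again called 12 genes and 0 of the members, and the log2 fold change of *Nppa*, described below, was 2.17 (adjusted p = 0.210).

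Cardiomyocyte transcripts were present in each of the 6 libraries at a low level. The 10 members summed to 196, 271 and 224 CPM in *ControlΔEC* and to 351, 168 and 358 CPM in *Wt1KOΔEC* libraries. They made up 0.0161 to 0.0347% of counts, and their sum was 10.2 to 25.5% of the CPM of *Pecam1* alone, an endothelial adhesion molecule, without scaling for length. The means were 230 ± 37.6 and 292 ± 108 CPM (SD, n = 3), a log2 ratio of 0.34. The ratio was 0.17 without *Wt1KOΔEC* replicate 3, 0.19 without replicate 1 and 0.62 without replicate 2 of that genotype, and 0.18 with library totals alone. The genotypes overlapped: the lowest and the highest sum both belonged to *Wt1KOΔEC* libraries. Libraries of *Wt1KOΔEC* replicates 1 and 3 stood above all *ControlΔEC* libraries, and replicate 2 stood below them.

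Before the members are taken singly, the comparison as a whole showed no DEG among them. A DEG was a gene with an adjusted p under 0.05 in edgeR's quasi-likelihood test and an absolute log2 fold change above 0.58. By this rule 0 of 10 members were called, where 0.0736% of all genes tested were called, 12 genes in all. At an unadjusted p under 0.05 with the same fold limit, 1 of 10 members was called, against 10.1% of all genes. DESeq2 called 1 of 10, against 4.83% of the 15886 genes it gave an adjusted p for. In 1 of 10 members no *ControlΔEC* library overlapped the *Wt1KOΔEC* range, against 19.3% of all genes. The member was *Nppa* in each case. The shares of members called at an unadjusted p and without overlap were close to or under those of all genes. The estimates were above 0 for 9 members and below 0 for *Mb*, with a median log2 fold change of 0.18, beside -0.03 over all genes tested.

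**Figure D1:**
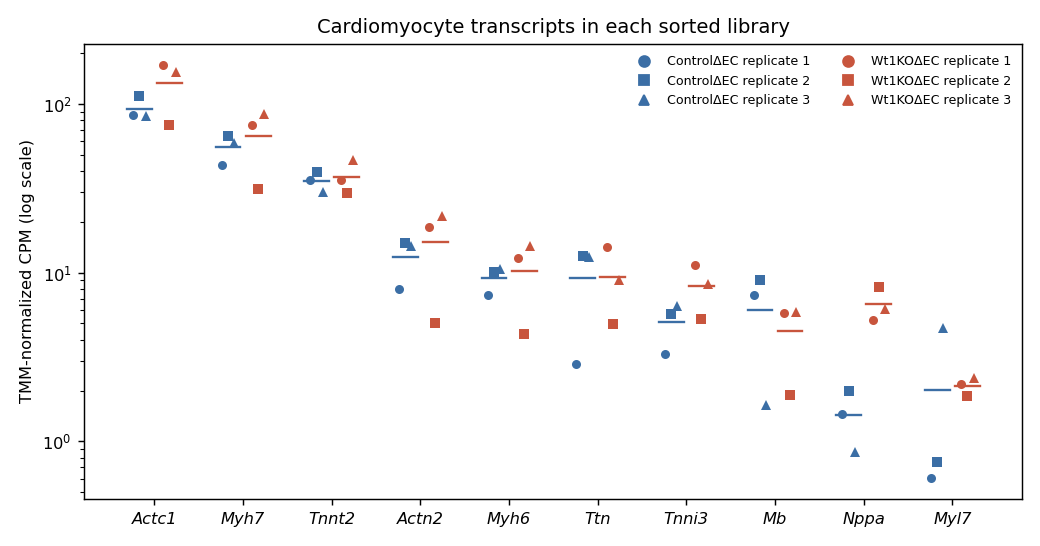
Level of each of the 10 cardiomyocyte transcripts in each library, in TMM-normalized CPM on a log axis, with members ordered by mean level. Points are libraries, marker shapes are replicate numbers (not said to mark a pair) and bars are genotype means. *Nppa* is the member whose genotypes do not overlap (0.867 to 1.99 against 5.25 to 8.17 CPM), and *Wt1KOΔEC* replicate 2 is the lowest library for *Actc1*, *Myh7*, *Tnnt2*, *Actn2* and *Myh6*.

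Thick filament genes were measured by both myosin heavy chains and by a light chain. *Myh7*, the β-myosin heavy chain, had 43.8, 65.0 and 58.8 CPM in *ControlΔEC* and 75.6, 31.1 and 87.8 CPM in *Wt1KOΔEC* libraries. The genotypes overlapped, with the *Wt1KOΔEC* libraries on both sides of the *ControlΔEC* range. Its log2 fold change was 0.21 (SE 0.34, adjusted p = 0.877, edgeR). *Myh6*, the α-myosin heavy chain of the atria and the adult heart, had 7.40, 10.1 and 10.5 CPM in *ControlΔEC* and 12.2, 4.35 and 14.3 CPM in *Wt1KOΔEC* libraries. Within *Wt1KOΔEC* its libraries had the same order as for *Myh7*, again with overlap, and its log2 fold change was 0.14 (SE 0.45, adjusted p = 0.948, edgeR). Without *Wt1KOΔEC* replicate 2 the estimates were 0.55 and 0.50 for *Myh7* and *Myh6*, and without *Wt1KOΔEC* replicate 3 they were -0.07 and -0.18.

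The balance of both myosins was close to constant. *Myh7* made up 85.5%, 86.6% and 84.8% of the *Myh6* and *Myh7* counts in *ControlΔEC* libraries, and 86.2%, 87.7% and 86.0% in *Wt1KOΔEC* libraries. The Wilson 95% intervals of single libraries reached from 83.2% at the lowest to 89.4% at the highest bound. The difference of the means was 0.971 percentage points, with overlapping libraries (p = 0.4, two-sided exact permutation test, n = 3 and 3, where 0.1 is the smallest p possible). It was 0.412 points without *Wt1KOΔEC* replicate 2, 0.547 without *ControlΔEC* replicate 3 and 1.45 without *ControlΔEC* replicate 2. β-myosin was thus the main heavy chain in all 6 libraries while the level of both moved 2.82-fold (*Myh7*) and 3.29-fold (*Myh6*) between the lowest and highest library. Because of the sequence the genes share, the share also depends on how reads of that stretch were divided between them by RSEM.

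*Myl7* (chr11:5845449-5848792), the atrial regulatory light chain of myosin, had 0.603, 0.750 and 4.72 CPM in *ControlΔEC* and 2.18, 1.85 and 2.37 CPM in *Wt1KOΔEC* libraries. These rest on 27, 37 and 136 counts and on 85, 66 and 60 counts. All 3 *Wt1KOΔEC* libraries lay between the low *ControlΔEC* replicates 1 and 2 and the high replicate 3. Its log2 fold change was 0.08 (SE 0.95, adjusted p = 0.988, edgeR), and it was 1.65 without *ControlΔEC* replicate 3 and -0.35 without *ControlΔEC* replicate 1. Relative to *Myl2*, the ventricular form of the same light chain, *Myl7* had 2.60, 2.52 and 26.0 counts per 100 *Myl2* counts in *ControlΔEC* and 6.70, 10.1 and 5.96 in *Wt1KOΔEC* libraries. *ControlΔEC* replicate 3 was high in this ratio too, and the genotypes overlapped (p = 1, two-sided exact permutation test).

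Thin filament genes held the most abundant member. *Actc1* (chr2:113876266-113884043), the cardiac α-actin, had 86.5, 110.9 and 84.4 CPM in *ControlΔEC* and 171, 75.2 and 155.6 CPM in *Wt1KOΔEC* libraries. Replicates 1 and 3 of *Wt1KOΔEC* lay above the *ControlΔEC* range and replicate 2 below it. The log2 fold change was 0.51 (SE 0.29, adjusted p = 0.507, edgeR), and it ranged from 0.30 without *Wt1KOΔEC* replicate 1 to 0.80 without *Wt1KOΔEC* replicate 2. *Actc1* ranked 1376 of 55416 genes by mean CPM, and it made up 37.7 to 48.7% of the summed member CPM.

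*Tnnt2* (chr1:135763738-135780315), cardiac troponin T, which ties the troponin complex to tropomyosin, had 35.2, 39.7 and 29.9 CPM in *ControlΔEC* and 35.3, 29.7 and 46.4 CPM in *Wt1KOΔEC* libraries. It varied the least of the members, 1.57-fold from the lowest to the highest library, with overlapping genotypes and a log2 fold change of 0.09 (SE 0.23, adjusted p = 0.935, edgeR). *Tnni3* (chr7:4521300-4527228), the cardiac inhibitory troponin, had 3.29, 5.68 and 6.38 CPM in *ControlΔEC* and 11.1, 5.31 and 8.55 CPM in *Wt1KOΔEC* libraries. Replicate 2 of *Wt1KOΔEC* lay inside the *ControlΔEC* range and the other libraries of that genotype above it, with a log2 fold change of 0.70 (SE 0.45, adjusted p = 0.584, edgeR). *Tnni1*, the slow skeletal form that the embryonic heart is known to use before *Tnni3*, was measured too, and of the counts of both genes, not scaled for length, *Tnni3* made up 18.7%, 22.8% and 39.4% in *ControlΔEC* and 40.3%, 23.1% and 24.9% in *Wt1KOΔEC* libraries. These shares overlapped (p = 0.5, two-sided exact permutation test).

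*Actn2* and *Ttn* stand for the Z-disc and the elastic filament. *Actn2* (chr13:12281303-12356693), the muscle α-actinin, had 7.96, 15.0 and 14.4 CPM in *ControlΔEC* and 18.6, 5.03 and 21.7 CPM in *Wt1KOΔEC* libraries, in the same order as *Myh7* within *Wt1KOΔEC*. Its log2 fold change was 0.28 (SE 0.51, adjusted p = 0.894, edgeR), 0.70 without *Wt1KOΔEC* replicate 2 and -0.07 without *Wt1KOΔEC* replicate 3. *Ttn* (chr2:76534136-76812891), titin, had 2.88, 12.5 and 12.5 CPM in *ControlΔEC* and 14.2, 4.94 and 9.10 CPM in *Wt1KOΔEC* libraries. *ControlΔEC* replicate 1 was the lowest library for titin, and the log2 fold change was 0.02 (SE 0.59, adjusted p = 0.995, edgeR), or -0.41 without that library. *Ttn* and *Actc1* lie 28.1 and 8.87 Mb from *Wt1* on mouse chromosome 2.

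*Nppa* (chr4:148085091-148086583) encodes atrial natriuretic peptide, a hormone made by atrial cardiomyocytes and, in the embryo, by the inner, trabecular layer of the ventricles. It had 1.45, 1.99 and 0.867 CPM in *ControlΔEC* and 5.25, 8.17 and 6.09 CPM in *Wt1KOΔEC* libraries, from 65, 98 and 25 counts and from 205, 291 and 154 counts. Every *Wt1KOΔEC* library was above every *ControlΔEC* library, and replicate 2, the lowest *Wt1KOΔEC* library for most sarcomere members, was the highest for *Nppa*. The means were 1.44 ± 0.560 and 6.505 ± 1.51 CPM (SD, n = 3). The log2 fold change was 2.17 (SE 0.57), which did not pass edgeR's test (unadjusted p = 0.00409, adjusted p = 0.209). DESeq2 gave 2.16 with an adjusted p of 0.00190. Leaving out 1 library at a time gave 1.92 (without *ControlΔEC* replicate 3) to 2.48 (without *ControlΔEC* replicate 2), with edgeR adjusted p from 0.159 to 0.501.

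*Mb* (chr15:76899686-76940711), myoglobin, which stores oxygen in muscle, had 7.33, 9.06 and 1.63 CPM in *ControlΔEC* and 5.78, 1.88 and 5.82 CPM in *Wt1KOΔEC* libraries. The lowest library was *ControlΔEC* replicate 3, the library that was highest for *Myl7*, and the genotypes overlapped. *Mb* was the member with an estimate below 0, at -0.42 (SE 0.70, adjusted p = 0.881, edgeR), and the estimate was -0.87 without *ControlΔEC* replicate 3 and 0.00147 without *ControlΔEC* replicate 2.

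**Figure D2:**
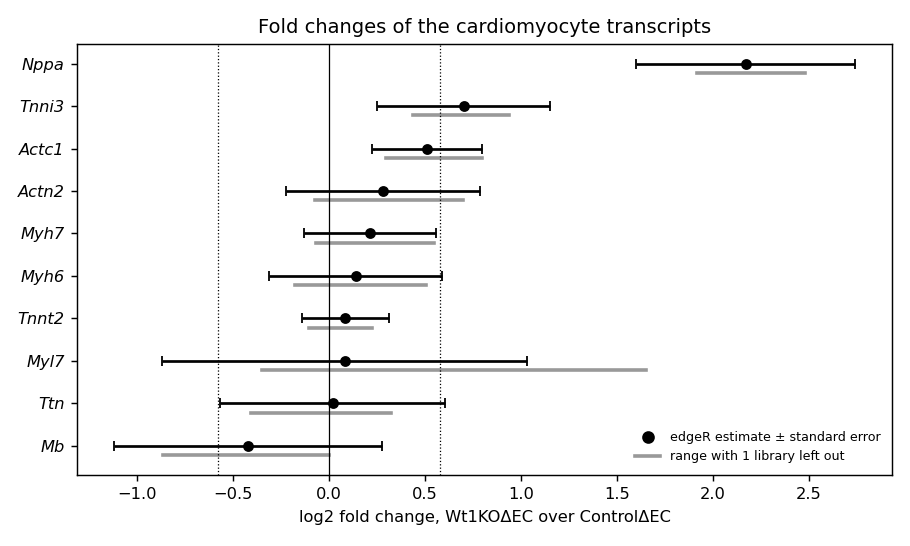
Log2 fold change of *Wt1KOΔEC* over *ControlΔEC* for each member; black points with bars are the edgeR estimate ± SE, grey lines the range when 1 library is left out, and dotted lines the fold limit of 0.58 in either direction. *Nppa* (2.17) lies beyond the limit with all of its grey range, and the grey range crosses 0 for *Actn2*, *Myh7*, *Myh6*, *Tnnt2*, *Myl7*, *Ttn* and *Mb*.

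Levels of different members were compared per kb of exonic length, taken over all annotated exons of a gene. That length exceeded the longest protein-coding transcript unevenly. It was 8.923 kb against 1953 bases in *Tnnt2*, 9.988 kb against 6363 bases in *Myh7* and 1.019 kb against 970 bases in *Nppa*. The order and the overlaps below therefore depend on the length chosen, and transcript lengths were not used. In *ControlΔEC* libraries the order was *Actc1* (16.2 ± 2.55 CPM per kb), *Myh7* (5.59 ± 1.09), *Tnnt2* (3.92 ± 0.552), *Mb* (2.63 ± 1.70), *Tnni3* (2.05 ± 0.651), *Nppa* (1.41 ± 0.550), *Actn2* (1.15 ± 0.359), *Myh6* (0.936 ± 0.170), *Myl7* (0.809 ± 0.933) and *Ttn* (0.0790 ± 0.0472), each as the mean and SD of 3 libraries. Between neighbours of this order, *Actc1* stood clear of *Myh7*, and *Myl7* stood clear of *Ttn*, while all other neighbours overlapped between libraries. In *Wt1KOΔEC* libraries *Actc1* (23.1 ± 8.90 CPM per kb) and *Myh7* (6.49 ± 2.98) again came first. By this exonic length *Nppa* took the third place there at 6.38 ± 1.48 CPM per kb, where it had the sixth in *ControlΔEC*. Its libraries overlapped those of *Myh7* and of *Tnnt2* (4.16 ± 0.956 CPM per kb). The exonic length is near the transcript length for *Nppa*, but not for *Tnnt2* or *Tnni3* (2.495 kb against 1035 bases). The place of *Nppa* among the members thus depends on the length used. The same neighbours as in *ControlΔEC* were clear of each other at both ends of the order. *Ttn* has 117.5 kb of exonic sequence, the longest of the members, and cDNA was primed from the poly(A) tail, so its level per kb also depends on how much of so long a transcript was copied, which was not tested.

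To set aside the level of *Myh7* in a library, members were expressed per 100 *Myh7* counts of the same library. *Myh6* stayed between 13.98 and 17.9 and *Actn2* between 16.1 and 24.8 in all 6 libraries, 1.28-fold and 1.53-fold from lowest to highest. *Actc1* had 197, 171 and 144 in *ControlΔEC* and 226, 242 and 177 in *Wt1KOΔEC* libraries, and *Tnnt2* 80.4, 61.2 and 50.8 and 46.7, 95.2 and 52.9. These ratios spanned 1.68-fold and 2.04-fold, with overlapping genotypes. *Mb* had 16.7, 13.9 and 2.77 in *ControlΔEC* and 7.65, 6.04 and 6.63 in *Wt1KOΔEC* libraries, which overlapped.

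*Nppa* had 3.32, 3.06 and 1.47 counts per 100 *Myh7* counts in *ControlΔEC* and 6.94, 26.2 and 6.94 in *Wt1KOΔEC* libraries. The genotypes did not overlap, and the spread within *Wt1KOΔEC* came from replicate 2, where *Myh7* was low and *Nppa* high. The difference of the means, 10.8 per 100, had an exact two-sided permutation p of 0.1, the smallest that 3 against 3 libraries allow, and 0.7 after Benjamini-Hochberg adjustment over the 7 ratios tested. The other ratios had raw p from 0.2 to 1 (*Actc1* 0.2, *Mb* 0.4, the *Myh7* share 0.4, the *Tnni3* share 0.5, *Tnnt2* 0.9, *Myl7* per *Myl2* 1), adjusted p 0.7 to 1. Over the 10 members, *Nppa* varied the most against *Myh7*, 17.8-fold from lowest to highest library, followed by *Myl7* (6.95-fold) and *Mb* (6.04-fold).

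**Figure D3:**
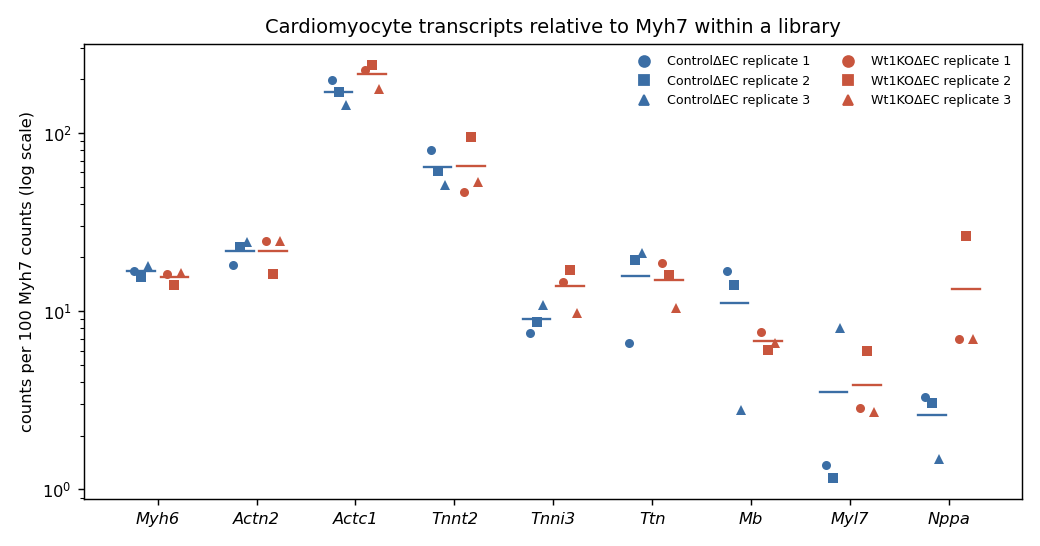
Counts of each member per 100 *Myh7* counts of the same library, on a log axis, ordered by the fold between the lowest and highest library; points are libraries, shapes are replicate numbers and bars are genotype means. *Myh6* and *Actn2* on the left keep within 13.98 to 17.9 and 16.1 to 24.8, and *Nppa* on the right runs from 1.47 to 26.2 with *Wt1KOΔEC* above *ControlΔEC*.

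Other genes of cardiomyocytes were read from 4 lists with 70 genes, of which 58 were tested. edgeR called 0 of 58 as DEGs, against 0.0736% of all genes. At an unadjusted p under 0.05 with the fold limit, 4 of 58 were called (2 higher and 2 lower in *Wt1KOΔEC*), against 10.1% of all genes. DESeq2 called 2 of 58, against 4.83% of all genes. In 10 of 58 genes the genotypes did not overlap, beside 19.3% of all genes. Their median log2 fold change was 0.18, beside -0.03 for all genes tested. Several of these genes are also active in ECs, smooth muscle or fibroblasts, among them *Tpm1*, *Pdlim5*, *Atp2a2*, *Mef2a*, *Mef2c*, *Gata4* and *Ldhb*, so their levels do not stand for muscle alone.

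Of 28 other sarcomere genes, 26 were tested, with 16 estimates above 0 and 10 below. By edgeR, DESeq2 or unadjusted p with the fold limit, 0 were called. *Tpm1*, a tropomyosin, was at 222 ± 61.7 and 251 ± 33.4 CPM (*ControlΔEC* and *Wt1KOΔEC*, SD, n = 3). *Myl2*, the ventricular regulatory light chain, was at 23.7 ± 5.86 and 30.2 ± 10.9 CPM, with a log2 fold change of 0.35 (SE 0.32, adjusted p = 0.739, edgeR). *Myl3*, the ventricular essential light chain, was at 18.4 ± 5.17 and 26.0 ± 6.96 CPM. Both light chains overlapped between genotypes, as the sarcomere members did. *Pdlim5*, a Z-disc adaptor, was at 155 ± 22.1 and 112 ± 12.9 CPM without overlap (log2 fold change -0.47, SE 0.17, adjusted p = 0.294, edgeR). *Myom2*, an M-band protein, was at or under 3 counts in 4 of 6 libraries, and no fold is given.

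Of 18 calcium handling and excitation genes, 14 were tested, edgeR called 0, and 6 estimates were above 0. *Atp2a2*, the calcium pump of the sarcoplasmic reticulum, was at 54.1 ± 11.9 and 53.3 ± 10.7 CPM, and *Pln*, its inhibitor phospholamban, at 8.13 ± 3.74 and 7.69 ± 1.87 CPM. *Kcnj2*, an inward rectifier potassium channel, was at 5.62 ± 3.15 and 7.72 ± 0.943 CPM. *Casq2*, the calcium store protein, was at 5.10 ± 2.85 and 3.73 ± 3.91 CPM, and all 4 genes overlapped between genotypes. *Cacnb2*, a calcium channel subunit, was at 0.374 ± 0.144 CPM in *ControlΔEC* and at 0 in *Wt1KOΔEC* libraries, and *Cacna1c*, the pore of that channel, was at or under 3 counts in 3 of 6 libraries.

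Of 12 muscle metabolism genes, 10 were tested and edgeR called 0. *Ldhb*, the lactate dehydrogenase subunit of heart, had 57.8, 68.5 and 58.8 CPM in *ControlΔEC* and 42.3, 30.8 and 40.0 CPM in *Wt1KOΔEC* libraries, without overlap. Its log2 fold change was -0.71 (SE 0.19), with an adjusted p of 0.209 in edgeR and 0.0149 in DESeq2. *Ckm*, muscle creatine kinase, was at 6.53 ± 2.06 and 7.26 ± 1.65 CPM, *Eno3*, muscle enolase, at 5.49 ± 4.30 and 6.50 ± 1.74 CPM, and *Hspb7*, a cardiac small heat shock protein, at 3.91 ± 1.95 and 3.84 ± 1.14 CPM. These 3 genes of muscle overlapped between genotypes, as did *Cpt1b*, the fatty acid carrier enzyme of muscle mitochondria, at 2.25 ± 1.01 and 3.99 ± 2.72 CPM.

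Of 12 cardiac transcription factor genes, 8 were tested and edgeR called 0. *Gata4*, which is also known from endocardium, had 21.7, 50.4 and 20.8 CPM in *ControlΔEC* and 95.3, 98.3 and 87.8 CPM in *Wt1KOΔEC* libraries. The genotypes did not overlap, and the log2 fold change of *Gata4* was 1.60 (SE 0.33), with an adjusted p of 0.120 in edgeR and 0.000465 in DESeq2. *ControlΔEC* replicate 2 held the highest *ControlΔEC* level, and without it the log2 fold change was 2.14 and *Gata4* passed edgeR's test (adjusted p = 0.00548). *Tbx20* had 2.57, 2.05 and 6.62 CPM in *ControlΔEC* and 10.8, 6.94 and 8.75 CPM in *Wt1KOΔEC* libraries (log2 fold change 1.24, SE 0.53, adjusted p = 0.366, edgeR). *Mef2c* was at 214 ± 22.2 and 169 ± 6.74 CPM, *Mef2a* at 202 ± 49.4 and 170 ± 32.9 CPM, and *Gata6* at 8.62 ± 3.19 and 6.73 ± 0.663 CPM. *Nkx2-5*, the factor that most sharply defines cardiomyocytes in this list, had 0 counts in the 3 *ControlΔEC* libraries and 0, 9 and 23 counts in the *Wt1KOΔEC* libraries, too few to compare.

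**Figure D4:**
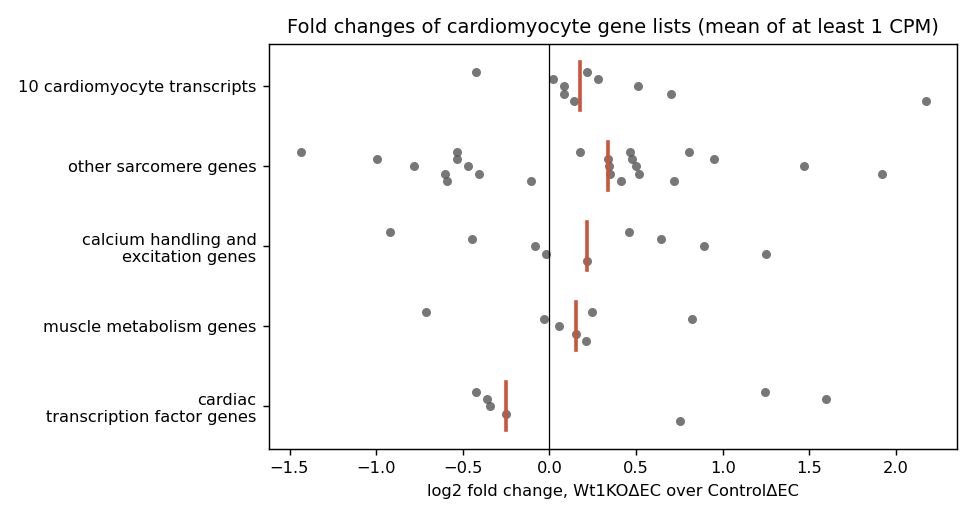
Log2 fold changes of *Wt1KOΔEC* over *ControlΔEC* for the 10 cardiomyocyte transcripts and the 4 lists of other cardiomyocyte genes, for genes whose mean CPM reached 1 (10, 24, 9, 7 and 7 genes); grey points are genes, spread vertically for visibility, and red bars are list medians. The points lie on both sides of 0 in every list, and *Nppa* (2.17), *Acta1* (1.92) and *Gata4* (1.60) have the highest estimates in their lists.

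Genes that separate heart chambers were read in the same way, although the dissected tissue was ventricle. The 6 atrial genes (*Myl7*, *Nppa*, *Sln*, *Myl4*, *Bmp10* and *Nr2f1*) summed to 5.32, 10.1 and 13.4 CPM in *ControlΔEC* and to 16.3, 17.9 and 21.1 CPM in *Wt1KOΔEC* libraries, without overlap. *Nppa* is part of this sum, and without it the other atrial genes summed to 3.87, 8.15 and 12.5 CPM and to 11.1, 9.72 and 15.0 CPM, which overlapped. *Myl4*, the atrial and embryonic essential light chain, was at 5.76 ± 2.53 and 9.48 ± 2.53 CPM, also without overlap (log2 fold change 0.72, SE 0.46, adjusted p = 0.576, edgeR). *Bmp10*, a growth factor of trabecular and atrial muscle, had 0 counts in every library. The 4 ventricular genes (*Myl2*, *Myl3*, *Irx4* and *Hey2*) summed to 38.2 to 55.8 CPM and 39.7 to 73.1 CPM, with overlap.

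Skeletal muscle shares part of its genes with the heart, and its own genes were low. The 10 skeletal muscle genes summed to 2.73 to 7.06 CPM in *ControlΔEC* and 3.05 to 5.54 CPM in *Wt1KOΔEC* libraries. *Myod1*, *Myf5* and *Myh8* had 0 counts in every library, and 4 of the 10 genes were at or under 3 counts in every library. The most abundant were above the floor in every library, *Tnnt3* at 1.64 ± 0.685 and 1.94 ± 0.950 CPM and *Mylpf* at 1.23 ± 0.438 and 0.677 ± 0.346 CPM.

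Markers of the other cells of the heart are given beside the members, since the sort could hold them too. Epicardial markers, led by *Clu* and *Aldh1a2*, summed to 47.8 to 55.5 CPM in *ControlΔEC* and 74.7 to 100.3 CPM in *Wt1KOΔEC* libraries. Both leading genes overlapped between genotypes (log2 fold change 0.25, SE 0.32, for *Clu* and -0.05, SE 0.66, for *Aldh1a2*). Of these 10 genes, 8 had estimates above 0, and *Aldh1a2* and *Dmkn* were below. *Upk3b*, *Upk1b*, *Krt18* and *Msln* were higher in every *Wt1KOΔEC* library, 4 of 10 against 19.3% of all genes without overlap. *Msln* had 59, 0 and 12 counts in the *ControlΔEC* libraries. Fibroblast markers, led by *Col3a1* and *Postn*, summed to 725 to 1065 CPM and 1457 to 1643 CPM. Of these 10 genes, 8 had estimates above 0. *Postn* (log2 fold change -0.16, SE 0.25) and *Dpt* (-1.60, SE 0.85) were below 0, and *Dpt* was lower in every *Wt1KOΔEC* library. Endocardial markers, led by *Plvap* and *Nfatc1*, summed to 356 to 453 CPM and 679 to 811 CPM. These 3 sums were higher in every *Wt1KOΔEC* library than in any *ControlΔEC* library. The endocardial sum stood apart only with *Plvap*: without it the list had 280 to 394 and 348 to 450 CPM, which overlapped. All 6 endocardial genes had estimates above 0, with a median log2 fold change of 0.83. *Tmem108* and *Hapln1*, like *Plvap*, were higher in every *Wt1KOΔEC* library. The epicardial sum without *Msln* and the fibroblast sum without *Col3a1*, their genes of largest difference, still did not overlap. Each gene of these 3 lists was above 3 counts in at least 4 libraries. edgeR called *Plvap* (log2 fold change 2.31, adjusted p = 0.00319) and *Col1a1* (1.34, adjusted p = 0.0441) in them. DESeq2 called 2 of 10 epicardial genes (*Upk3b* and *Msln*) and 4 of 10 fibroblast genes (*Col3a1*, *Col1a2*, *Dcn* and *Col1a1*), all higher. It called 3 of 6 endocardial genes (*Plvap*, *Tmem108* and *Hapln1*), also higher, against 4.83% of all genes. Genotypes did not overlap in 7 of 10 fibroblast genes, *Dpt* among them, and in 3 of 6 endocardial genes, against 19.3% of all genes. Mural cell markers, led by *Abcc9* and *Rgs5*, summed to 469 to 639 CPM and 330 to 387 CPM, lower in every *Wt1KOΔEC* library, also without *Rgs5* (436 to 475 and 310 to 361 CPM). The log2 ratio of this sum was -0.69, and -0.44 without *Rgs5*, and the median over the list was -0.35. Of 9 mural genes tested, 7 had estimates below 0 and 2 above, the highest at 0.92 and *Cnn1* at 0.88 (SE 0.87). Genotypes did not overlap in 4 of the 9, against 19.3% of all genes. DESeq2 called 3 of the 9 as lower (*Rgs5*, *Cspg4* and *Pdgfrb*), against 4.83% of all genes.

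Macrophage markers, led by *Csf1r* and *C1qb*, summed to 273 to 826 CPM in *ControlΔEC* and 198 to 293 CPM in *Wt1KOΔEC* libraries, and erythroid markers, led by *Hba-a1* and *Hbb-bs*, to 6579 to 14381 CPM and 5145 to 8549 CPM. Both sums overlapped between genotypes. All 8 macrophage genes had estimates below 0 (median log2 fold change -0.92), and edgeR called 0 of them. *Adgre1* and *Csf1r* were lower in every *Wt1KOΔEC* library, 2 of 8 against 19.3% of all genes without overlap. DESeq2 called the same 2 (adjusted p = 0.0129 and 0.0102), against 4.83% of all genes. The log2 ratio of the macrophage sum was -1.02, and -0.48 without *ControlΔEC* replicate 2. Within the erythroid list, the embryonic globin genes *Hbb-y* (log2 fold change 2.57, SE 0.54) and *Hba-x* (2.11, SE 0.61) were higher and *Alas2* (-1.15, SE 0.35) lower in every *Wt1KOΔEC* library, with DESeq2 adjusted p of 0.0132, 0.0110 and 0.0330 and edgeR adjusted p of 0.128, 0.220 and 0.243. *Wt1KOΔEC* replicate 2, lowest for the summed members, was also the lowest library for erythroid markers, while for endocardial markers it was the highest. The part of these other cells in the level of *Nppa* was not tested.

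**Figure D5:**
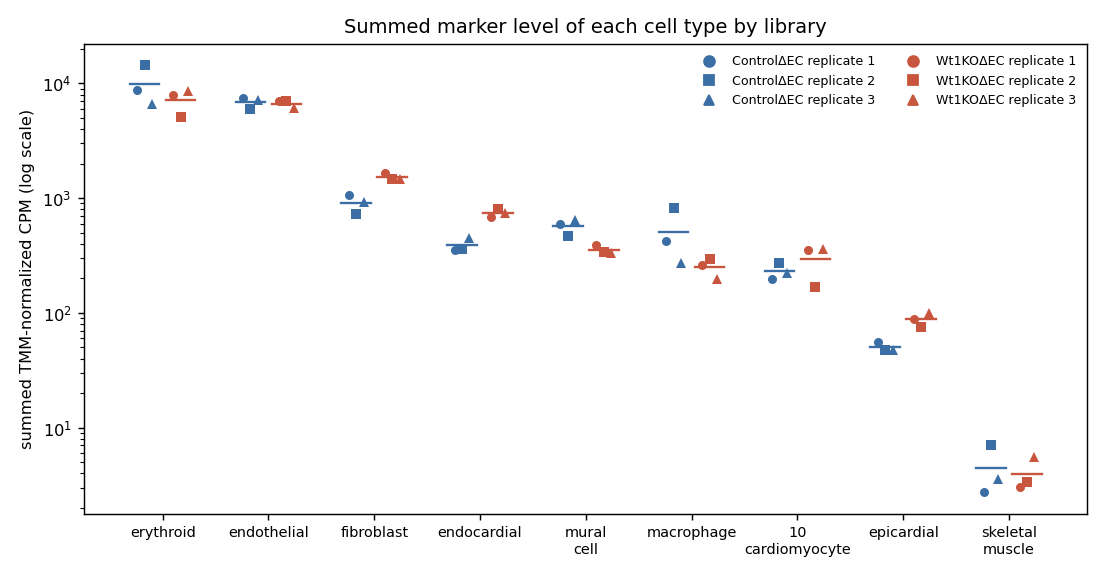
Summed CPM of the marker genes of each cell type in each library, on a log axis, for the 10 cardiomyocyte transcripts and 8 other lists; points are libraries, shapes are replicate numbers and bars are genotype means. The cardiomyocyte sum (168 to 358 CPM) overlaps between genotypes. The fibroblast, endocardial (with *Plvap* in the list) and epicardial sums are higher and the mural cell sum lower in every *Wt1KOΔEC* library.

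The genes most like the members were sought over the 6 libraries, by the Pearson correlation of log2 CPM with the mean of the members' centred log2 CPM, among 10097 other genes with at least 5 CPM. The highest were *Cyb5b* (r = 0.988), *Mtap* (0.983), *Gtf2h5* (0.979), *Denr* (0.968) and *Myl3* (0.962), and 38 genes, 0.376%, had r above 0.9. Of these 5, *Myl3* is a cardiomyocyte gene. The others encode a cytochrome b5, an enzyme of methionine salvage, a subunit of a general transcription factor and a translation factor, all in general use, and with 6 libraries a high r over so many genes is a description.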

How the data were processed

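The authors made SMART-seq2 libraries from 2 ng of RNA of mGFP+ cells with 12 cycles of amplification and no molecular identifiers. According to the submitters' processing notes they used STAR 2.7.8a and RSEM 1.3.0 (DESeq2 1.18 for their comparison). The authors deposited 1 table of expected counts from RSEM, which are not normalized and hold whole numbers. The study's methods name GRCm39 with GENCODE vM27, while the processing notes list GRCm38, so gene positions were taken by gene identifier from GENCODE vM39 on GRCm39, and promoters from RefSeq on GRCm38.p6.

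Counts of 3 *ControlΔEC* and 3 *Wt1KOΔEC* libraries (26037324 to 44779020 in total) were compared with edgeR 4.0.16 under R 4.3.3 (TMM, quasi-likelihood test, Benjamini-Hochberg adjustment). Tested were the 16296 genes that reached 10 counts in 2 or more libraries. An adjusted p under 0.05 with an absolute log2 fold change above 0.58 made a DEG. An SE was derived by dividing the estimate by the root of its F statistic. DESeq2 1.42.0 and limma 3.58.1 were alternatives, as were other scalings, filters, a replicate block and leaving out each library. Ratios within a library used exact permutation tests (Python 3.11.15, SciPy 1.17.1). The edgeR step was tested on simulated data.

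Members and lists were chosen with earlier results of these data known. Named were all members, *Wt1*, of each other cardiomyocyte list up to 4 genes of highest mean CPM, any DEG and the 2 of lowest unadjusted p, the 2 leading genes of each other cell type, and the 5 genes most correlated with the members. The antisense and chamber genes, *Dnaaf3*, *Tnni1*, *Col1a1*, *Msln*, *Hbb-y*, *Hba-x*, *Alas2*, *Acta1* and *Nkx2-5* were named after their values were seen. So were *Dpt*, *Dmkn*, *Upk3b*, *Upk1b*, *Krt18*, *Cnn1*, *Tmem108*, *Hapln1*, *Col1a2*, *Dcn*, *Cspg4*, *Pdgfrb* and *Adgre1*. Intervals and the floor of 3 counts cover counting error only.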

Additional observations from a re-analysis of the deposited data

How the results depend on the processing

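The call of no member by edgeR held under limma-voom, other scalings and filters, and without any 1 library. DESeq2 called 1 member, on its own genes and on the genes edgeR tested (the latter chosen after seeing the data), as did the unadjusted p (1). Of the other cardiomyocyte genes DESeq2 called 2 (2 on edgeR's genes), and 1 was called without a filter on low counts and with 10 counts in every library (*Gata4* in both); leaving out 1 library gave 0 to 1 (*Gata4*, without *ControlΔEC* replicate 2). DEGs over all genes numbered 12, and 767 by DESeq2 (599 on edgeR's genes). They numbered 296 without a filter, 113 with 10 counts in every library and 1652 by unadjusted p with the fold limit. With 1 library left out they numbered 2 (without *Wt1KOΔEC* replicate 3) to 37 (without *ControlΔEC* replicate 3). The cause was not tested.

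Deviations of same-numbered libraries from their genotype means had correlations of 0.0566, 0.00448 and 0.0201, beside -0.0429 to 0.0250 for differently numbered libraries. Values this small, from 3 libraries per genotype, cannot decide whether same-numbered libraries share a litter. With the replicate block 5 DEGs, 0 members and 0 other cardiomyocyte genes were called, and the *Myh7* share differed by 0.971 percentage points (exact permutation p = 0.25, the smallest for 3 pairs), as without it; with 1 library left out the difference ranged from 0.412 to 1.45. The summed members' log2 ratio of 0.34 ranged from 0.17 to 0.62 with 1 library left out.

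Estimates near 0 changed sign. With library totals alone, which moved the median of all genes from -0.03 to -0.18, log2 fold changes were -0.0225 for *Myh6*, -0.0652 for *Tnnt2*, -0.17 for *Ttn* and -0.0769 for *Myl7*, and limma-voom gave -0.0437 for *Myh6*. With 1 library left out they ranged from -0.18 to 0.50 for *Myh6*, -0.0656 to 0.55 for *Myh7*, -0.11 to 0.22 for *Tnnt2*, -0.0722 to 0.70 for *Actn2*, -0.41 to 0.33 for *Ttn*, -0.35 to 1.65 for *Myl7* and -0.87 to 0.00147 for *Mb*. *Nppa*, *Actc1* and *Tnni3* kept their direction under all alternatives run. Marker sums without their gene of largest difference were chosen after seeing the data. At these depths genes at or under 3 counts in a library could not be compared.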
